A study of Mus musculus with 9 samples.

Results

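The 41 genes described here are the secreted Wnt ligands, their receptors and the secreted proteins that block them, in pluripotent mouse cells grown in 3 different media. They were chosen by name: 19 Wnt genes, 10 Frizzled receptor genes, the co-receptor genes Lrp5 and Lrp6, 5 genes for secreted Frizzled-related antagonists, 4 Dickkopf genes and Wif1. Each was read from the probe set that carries its symbol alone, and the brighter by the mean over all arrays where a gene had more than 1. All 41 had such a probe set, among 19938 genes measured.

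Wnt proteins are secreted, lipid-modified signals that bind a Frizzled receptor together with an LRP5 or LRP6 co-receptor. In the canonical branch this spares beta-catenin from degradation by a complex that contains Axin and the kinase GSK3, and beta-catenin then acts with TCF/LEF factors on target genes. Other branches use Frizzled receptors without beta-catenin, for instance in planar cell polarity. Canonical Wnt signalling supports self-renewal of naive mouse embryonic stem cells, and in the mouse epiblast Wnt3 is needed to form the primitive streak.

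Total RNA was measured on 9 microarrays, 3 per condition. The first group were epiblast stem cells (EpiSCs, from the primed epiblast that comes just before gastrulation) of strain CD1 kept in CHIR99021 (3 µM), a GSK3 inhibitor, with XAV939 (2 µM), which stabilises Axin by inhibiting tankyrase. The second were CD1 EpiSCs in their usual medium, with FGF2 at 10 ng/ml and activin at 10 ng/ml. The third were strain 129 embryonic stem cells (ESCs), the counterpart of the naive epiblast, kept in 2i. By the common meaning of that name, 2i is CHIR99021 (3 µM) with PD0325901 (1 µM), which inhibits MEK. Fetal bovine serum at 10% is listed for all samples too, but no group name mentions it, so its use in each group is not known. The doses are listed for all samples together, so their assignment to groups follows the group names. Whenever EpiSCs are set against ESCs, strain and PD0325901 differ along with cell type. By the group names XAV939 differs too for CHIR/XAV EpiSCs, and CHIR99021, FGF2 and activin differ for FGF2/activin EpiSCs. Between the EpiSC groups CHIR99021, XAV939, FGF2 and activin all differ by the group names. In none of these comparisons can the parts of the factors be told apart. Age, passage and the number of lines are not given in the labels. Whether a group's arrays stem from separate cultures is not stated, so p-values measure only the spread between these arrays, and that spread may be technical.

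Values are log2 expression, so a difference of 1 is a 2-fold change. Levels of different genes are not set against each other, because probe sets differ in brightness. As a guide to background, a group mean at or below 5.29 is called dim here. That is the 95th percentile of the mean levels of 1027 olfactory receptor genes, most of which are silent outside the nose. By it 18 of the 41 genes were dim in all 3 groups and 23 were above it in at least 1. Where a dim group is at background, a fold change measured against it comes out too small.

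The tissue label reads embryonic stem cell for every sample, whereas the source label separates ESCs from EpiSCs, and the marker genes followed the source label. All 10 naive ESC markers were lower and all 8 primed epiblast markers higher in each EpiSC group than in ESCs. Correlations over all genes ran from 0.996 to 0.998 within groups and from 0.933 to 0.975 between them, and no array stood apart from its group. Among fibroblast markers, 2 of 11 were higher and 2 lower in the CHIR/XAV group, and 6 were higher and 1 lower in FGF2/activin EpiSCs, each against ESCs. Beside these and the marker counts below stand the shares of all genes. They were 24.7% higher and 22.1% lower in the CHIR/XAV group, and 27.8% and 33.5% in FGF2/activin EpiSCs. The mean level of the fibroblast list was 5.54 to 5.59 on CHIR/XAV arrays, 5.85 to 5.90 on FGF2/activin arrays and 5.58 to 5.63 on ESC arrays. Of its members, Dcn, Lum and Postn were dim in every group. Acta2 averaged 5.96, 9.41 and 6.98 in CHIR/XAV EpiSCs, FGF2/activin EpiSCs and ESCs, Thy1 7.21, 5.70 and 5.44, and Fbln1 7.57, 7.71 and 9.11. In the same order Col1a1 averaged 5.94, 6.06 and 5.94, and S100a4 4.92, 5.46 and 4.68. Extraembryonic endoderm markers averaged 5.19 to 5.33, 5.32 to 5.39 and 5.11 to 5.17 in the same order, and 5 of the 10 were dim in every group. Against ESCs 1 was higher and 2 lower in the CHIR/XAV group, and 3 higher and 5 lower in FGF2/activin EpiSCs. The rises included 1 and 2 of 2-fold or more. Of 7 neural markers measured, 2 were higher and 2 lower in the CHIR/XAV group, and 2 higher and 3 lower in FGF2/activin EpiSCs. Of 5 trophoblast markers measured, 1 was higher and 1 lower in each EpiSC group. Both lists held rises of 2-fold or more, and the neural list such falls too. Primitive streak and mesoderm markers averaged 5.47 to 5.54, 5.63 to 5.72 and 5.25 to 5.34 in CHIR/XAV EpiSCs, FGF2/activin EpiSCs and ESCs. Of those 10 markers 4 were higher and 3 lower in the CHIR/XAV group, and 4 higher and 4 lower in FGF2/activin EpiSCs, each against ESCs, with median differences of -0.01 and -0.14. The rises included 1 and 3 of 2-fold or more, and 4 of the 10 markers were dim in every group. Without the dimmest 40% of all genes, 5 of these markers remained, with medians of 0.51 and 1.11. The part of such cells in the results was not tested, and in bulk RNA fewer cells of a type and less RNA per cell cannot be told apart.

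Wnt8a, Wnt3, Wnt5a, Lrp5, Fzd1, Fzd2, Fzd3, Fzd6 and Frzb were called higher in each kind of EpiSC than in ESCs. Sfrp2, Sfrp4, Fzd5 and Dkk2 were called lower in each. Frzb and Dkk2 were dim in all groups, and the calls of Dkk2 were lost under several changes of the processing. Among the genes higher in FGF2/activin than in CHIR/XAV EpiSCs were Wnt3, Wnt4, Wnt5a, Fzd1, Fzd6 and Fzd10. Among those higher in CHIR/XAV EpiSCs were Sfrp1, Sfrp2 and Fzd7. A difference was called where limma's p, adjusted by Benjamini-Hochberg over all 19938 genes, was under 0.05. In CHIR/XAV EpiSCs against ESCs, 12 of the 41 genes were higher, 6 lower and 23 not called, where 24.7% of all genes were called higher and 22.1% lower. In FGF2/activin EpiSCs against ESCs, 14 were higher, 14 lower and 13 not called, with 27.8% of all genes higher and 33.5% lower. In CHIR/XAV against FGF2/activin EpiSCs, 13 were higher, 9 lower and 19 not called, with 20.5% of all genes higher and 21.1% lower.

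The arrays of the compared groups did not overlap for 20 of the 41 genes, or 13 above and 7 below, in CHIR/XAV EpiSCs against ESCs, where 53.2% of all genes did not overlap. They did not overlap for 15 above and 16 below in FGF2/activin EpiSCs against ESCs, where the share of all genes was 66.6%. For CHIR/XAV against FGF2/activin EpiSCs it was 16 above and 9 below, with 52.0% of all genes. The median difference of the 41 genes was 0.01 against -0.03 for all genes in the first comparison, -0.07 against -0.08 in the second and 0.13 against 0.05 in the third. Calls were common among all genes, so nothing is read from these counts about the set, and the results below concern single members. Both comparisons against ESCs use the same 3 ESC arrays.

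At a difference of 2-fold or more, 3 members were higher and 0 lower in CHIR/XAV EpiSCs against ESCs (5.03% and 3.3% of all genes). Those numbers were 5 and 2 in FGF2/activin EpiSCs against ESCs (6.66% and 3.45% of all genes). They were 1 and 4 in CHIR/XAV against FGF2/activin EpiSCs (1.62% and 2.5% of all genes). These are 9 genes in all, Wnt3, Wnt4, Wnt8a, Fzd1, Fzd2, Fzd6, Fzd10, Sfrp2 and Sfrp4.

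**Figure D1:**
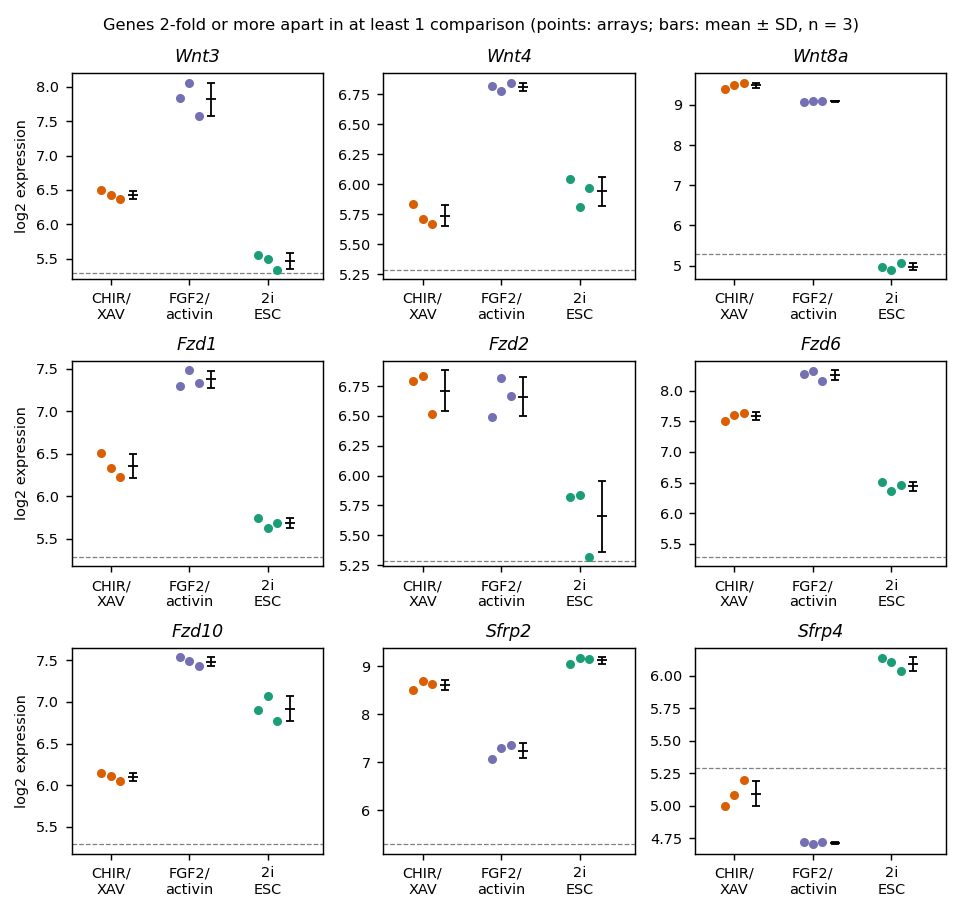
Log2 expression (vertical axis, scaled to each gene) of the 9 genes that differed by 2-fold or more in at least 1 comparison, on the 3 arrays each of CHIR/XAV EpiSCs, FGF2/activin EpiSCs and 2i ESCs. Points are arrays, bars are the mean ± SD and the dashed line is the upper end of the dim range at 5.29; Wnt8a lies below it only in ESCs and Sfrp4 only in EpiSCs.

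The promoters of 4 of these genes, whose levels separate all 3 cultures, are printed. Wnt8a, Fzd6 and Sfrp4 separate them too, but no promoter was available for them here. Wnt3 and Fzd1 were highest in FGF2/activin EpiSCs and lowest in ESCs, Sfrp2 had the opposite order, and Fzd10 was lowest in CHIR/XAV EpiSCs. Each runs from 250 bases before to 50 bases from the transcription start on, 5′ to 3′ on the gene's strand, from RefSeq on GRCm38.p6. Wnt3 lies at chr11:103773925-103774224 (plus strand), Fzd1 at chr5:4758167-4758466 (minus strand), Sfrp2 at chr3:83766071-83766370 (plus strand) and Fzd10 at chr5:128600856-128601155 (plus strand). Capitals mark matches to the core letters that TCF/LEF factors bind, CTTTGA or CTTTGT on either strand.
Wnt3: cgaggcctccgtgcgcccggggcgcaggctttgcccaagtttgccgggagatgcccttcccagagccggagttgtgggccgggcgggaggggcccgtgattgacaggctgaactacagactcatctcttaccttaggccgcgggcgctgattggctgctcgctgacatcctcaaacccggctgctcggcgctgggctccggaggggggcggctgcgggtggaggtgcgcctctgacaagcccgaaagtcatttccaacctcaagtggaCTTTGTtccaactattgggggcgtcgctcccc
Fzd1: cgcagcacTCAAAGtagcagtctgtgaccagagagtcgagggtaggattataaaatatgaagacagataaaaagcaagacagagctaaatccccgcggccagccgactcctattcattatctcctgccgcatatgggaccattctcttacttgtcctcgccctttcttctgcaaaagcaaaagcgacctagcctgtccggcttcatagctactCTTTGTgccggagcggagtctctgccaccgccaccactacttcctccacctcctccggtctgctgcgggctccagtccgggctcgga
Sfrp2: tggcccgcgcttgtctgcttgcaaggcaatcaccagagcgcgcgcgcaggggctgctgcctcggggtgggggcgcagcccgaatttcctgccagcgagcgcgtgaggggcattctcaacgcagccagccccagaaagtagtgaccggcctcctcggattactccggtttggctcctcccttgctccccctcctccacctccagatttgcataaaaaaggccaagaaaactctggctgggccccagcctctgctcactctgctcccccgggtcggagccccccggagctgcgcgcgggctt
Fzd10: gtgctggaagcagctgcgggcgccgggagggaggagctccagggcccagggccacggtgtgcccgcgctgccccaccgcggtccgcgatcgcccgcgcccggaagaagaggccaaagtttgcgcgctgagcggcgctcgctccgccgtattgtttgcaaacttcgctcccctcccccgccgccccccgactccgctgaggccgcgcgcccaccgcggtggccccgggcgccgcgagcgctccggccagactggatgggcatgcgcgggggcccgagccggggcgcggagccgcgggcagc

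Wnt3 held 1 match, 18 bases after the start, and Fzd1 held 2, at 37 and 242 bases before it, the farther on the other strand. No match lies in the printed windows of Sfrp2 and Fzd10. Of the 41 genes 27 had a promoter in the table used here, 30 promoters in all, and 9 of the 30 held a match. Among all 32851 promoters of this length 31.2% did. A match describes letters and is not a shown binding site.

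Of the ligands, Wnt8a had the largest difference from ESCs among the 41 genes, and Wnt3 separated all 3 cultures. Wnt8a, a canonical ligand made in the primitive streak of the embryo, read 9.41, 9.51 and 9.55 on the CHIR/XAV arrays, 9.08, 9.10 and 9.11 on the FGF2/activin arrays and 4.97, 4.90 and 5.05 on the ESC arrays. It was thus high on all 6 EpiSC arrays and dim on the 3 ESC arrays, and no groups overlapped. The difference from ESCs was 4.51 (SE 0.07, adjusted p = 4.19e-15) in CHIR/XAV EpiSCs, or 22.8-fold, and 4.12 (adjusted p = 6.40e-15) in FGF2/activin EpiSCs, or 17.4-fold. Between the EpiSC groups it was 0.39 higher in CHIR/XAV (adjusted p = 0.000306).

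Wnt3 read 6.49, 6.42 and 6.37 in CHIR/XAV EpiSCs, 7.84, 8.05 and 7.57 in FGF2/activin EpiSCs and 5.55, 5.50 and 5.34 in ESCs. The arrays fell into 3 steps with no overlap, FGF2/activin at the top and ESCs just above the dim range. Against ESCs it was 0.97 higher in CHIR/XAV EpiSCs (SE 0.10, adjusted p = 2.48e-06), or 1.95-fold, and 2.36 higher in FGF2/activin EpiSCs (adjusted p = 1.19e-10), or 5.12-fold. CHIR/XAV EpiSCs were 1.39 below FGF2/activin EpiSCs, a difference of -1.39 (adjusted p = 1.04e-07).

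Wnt4, a ligand best known from kidney and gonad development, read 5.84, 5.71 and 5.66 in CHIR/XAV EpiSCs, 6.82, 6.77 and 6.84 in FGF2/activin EpiSCs and 6.04, 5.81 and 5.97 in ESCs. The FGF2/activin arrays stood above all others, and the CHIR/XAV and ESC arrays overlapped. FGF2/activin EpiSCs were 0.87 above ESCs (SE 0.08, adjusted p = 2.18e-07), and the difference of CHIR/XAV from FGF2/activin EpiSCs was -1.07 (adjusted p = 5.93e-08). CHIR/XAV EpiSCs against ESCs gave -0.20 (adjusted p = 0.0427) on this probe set, a call that turned to 0.11 with the mean of its probe sets and was lost in 10 other alternatives, the leaving out of any single FGF2/activin array among them. The dimmer probe set of Wnt4 gave 0.42 for the same comparison (adjusted p = 0.000391), so the 2 probe sets disagree in sign there. For the other comparisons that probe set gave 1.53 and -1.11, the same signs as the brighter one.

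Wnt5a, which signals mainly through branches that do not use beta-catenin, was above the dim range in FGF2/activin EpiSCs alone. It read 5.19, 5.02 and 5.01 in CHIR/XAV EpiSCs, 5.52, 5.52 and 5.54 in FGF2/activin EpiSCs and 4.82, 4.74 and 4.79 in ESCs, with no overlap. The differences from ESCs were 0.29 (adjusted p = 0.00274) and 0.74 (adjusted p = 3.58e-07) in CHIR/XAV and FGF2/activin EpiSCs. Wnt9a was highest in FGF2/activin EpiSCs as well, at 5.31 in CHIR/XAV EpiSCs, 5.96 in FGF2/activin EpiSCs and 5.49 in ESCs (means of 3 arrays). Its difference of CHIR/XAV from FGF2/activin EpiSCs was -0.65 (adjusted p = 6.63e-06). Wnt9b ran the other way, at 5.93, 5.66 and 6.13 in the same order, and was 0.47 below ESCs in FGF2/activin EpiSCs (difference -0.47, adjusted p = 0.000957). Wnt5b, a relative of Wnt5a, averaged 5.95 in CHIR/XAV EpiSCs, 5.64 in FGF2/activin EpiSCs and 5.68 in ESCs. The difference of CHIR/XAV EpiSCs from ESCs was 0.27 (adjusted p = 0.0212). That call was lost without CHIR/XAV replicate 1, ESC replicate 1 or ESC replicate 2, and with quantile normalization or tested-gene centring.

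Over the 19 Wnt genes, 4 were higher, 1 lower and 14 not called in CHIR/XAV EpiSCs against ESCs, to be read beside the shares of all genes given above. The counts were 7, 4 and 8 in FGF2/activin EpiSCs against ESCs and 5, 6 and 8 in CHIR/XAV against FGF2/activin EpiSCs. The ligand counts move with the scaling of the arrays. With each array centred on the median of the tested genes, the first became 3 higher and 7 lower, the second 6 and 5, and the third 3 and 6. Of the 19, 11 were dim in all groups. Among these were Wnt1, Wnt2, Wnt6, Wnt7a, Wnt10b and Wnt11, which were called in no comparison, with group means from 4.37 to 5.06. Wnt2b, Wnt3a, Wnt7b, Wnt8b and Wnt16 were dim too and differed by at most 0.47 in size in any comparison, the largest being Wnt7b in CHIR/XAV against FGF2/activin EpiSCs (-0.47, adjusted p = 0.000692). Wnt3a, the ligand most used to activate the canonical branch in culture, averaged 4.75 in CHIR/XAV EpiSCs, 4.58 in FGF2/activin EpiSCs and 4.91 in ESCs. Wnt10a was above the dim range in ESCs alone, at 5.24 and 5.09 in CHIR/XAV and FGF2/activin EpiSCs and 5.44 in ESCs, and the difference of FGF2/activin EpiSCs from ESCs was -0.35 (adjusted p = 0.0106). That call was lost without ESC replicate 3.

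**Figure D2:**
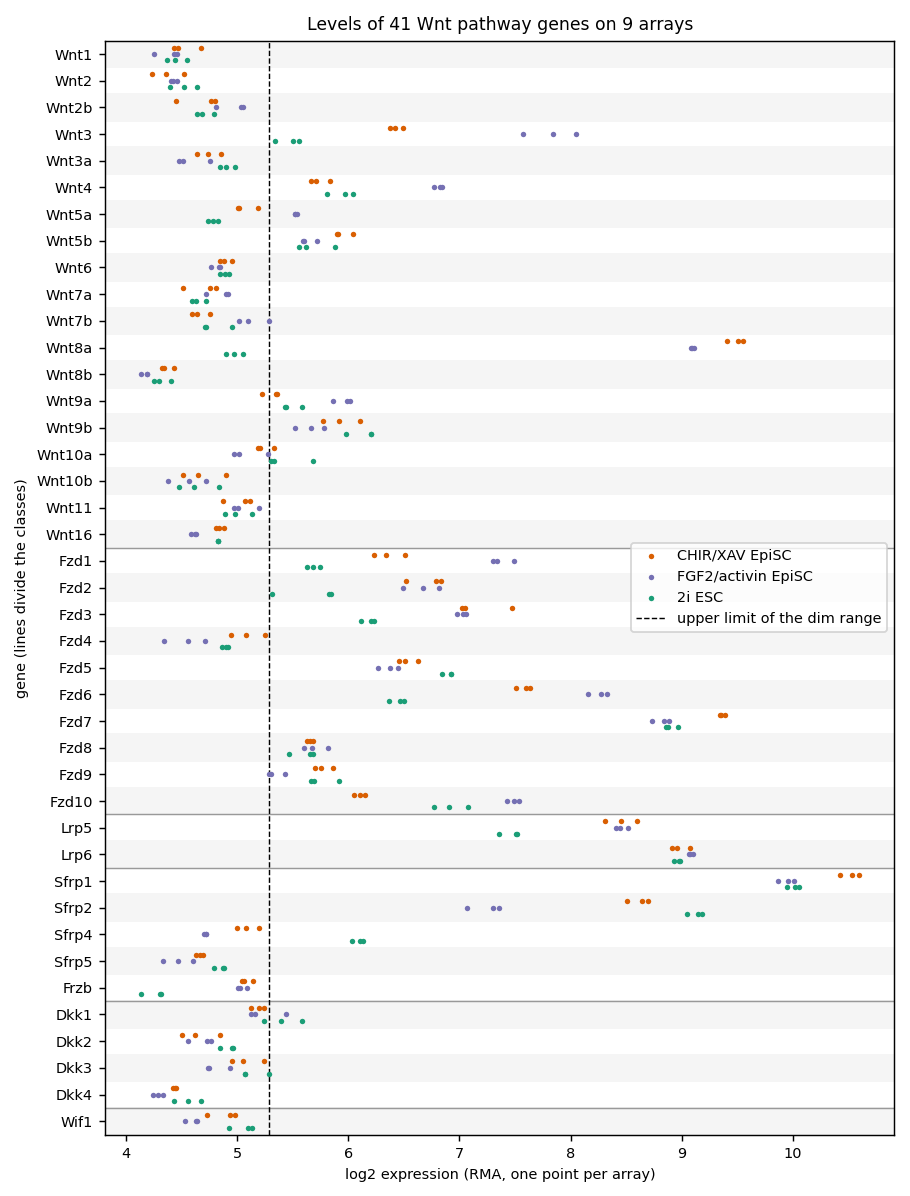
Log2 expression (horizontal axis) of each of the 41 genes, grouped by class, with 1 point for each of the 3 arrays of CHIR/XAV EpiSCs, FGF2/activin EpiSCs and 2i ESCs. The dashed line marks 5.29, the upper end of the dim range; most Wnt and Dickkopf genes lie below it, and 9 of the 10 Frizzled genes have a mean above it in at least 1 group.

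Frizzled genes encode the membrane-spanning receptors to which the ligands bind. In CHIR/XAV EpiSCs against ESCs 5 of the 10 were higher, 2 lower and 3 not called, and in FGF2/activin EpiSCs 5 were higher, 3 lower and 2 not called. Between CHIR/XAV and FGF2/activin EpiSCs 3 were higher in CHIR/XAV, 3 lower and 4 not called, and under quantile normalization 5 were higher. Among all genes above the dim range, where 9 of the 10 lie, 35.6% were higher and 27.3% lower in CHIR/XAV EpiSCs against ESCs, 40.8% and 30.5% in FGF2/activin EpiSCs against ESCs, and 23.5% and 31.3% in CHIR/XAV against FGF2/activin EpiSCs. The median difference from ESCs over the 10 genes was 0.33 in CHIR/XAV EpiSCs and 0.33 in FGF2/activin EpiSCs, against -0.03 and -0.08 over all genes, or 0.04 and 0.09 over all but the dimmest 40%. Under quantile normalization the FGF2/activin median was 0.18.

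Fzd6, a receptor with a known part in planar polarity of mouse hair and skin, read 7.51, 7.60 and 7.63 in CHIR/XAV EpiSCs, 8.27, 8.33 and 8.16 in FGF2/activin EpiSCs and 6.50, 6.36 and 6.46 in ESCs. The 3 groups did not overlap, and their order was the same as for Wnt3. The differences from ESCs were 1.14 (SE 0.07, adjusted p = 7.65e-09) in CHIR/XAV EpiSCs, or 2.20-fold, and 1.81 (adjusted p = 3.56e-11) in FGF2/activin EpiSCs, or 3.50-fold. CHIR/XAV EpiSCs differed from FGF2/activin EpiSCs by -0.67 (adjusted p = 3.71e-06).

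Fzd6 lies on chromosome 15, whose 473 genes above the dimmest 40% had a median difference of 0.37 in CHIR/XAV EpiSCs against ESCs, while 11029 such genes on the other autosomes had 0.03. In FGF2/activin EpiSCs against ESCs the medians were 0.10 and 0.09. In CHIR/XAV against FGF2/activin EpiSCs they were 0.20 and -0.05, where Fzd6 itself differed by -0.67. The 20 nearest such genes had a median of 0.23 and a range of -1.03 to 2.65 in CHIR/XAV EpiSCs, and a median of 0.27 and a range of -0.77 to 2.34 in FGF2/activin EpiSCs. Fzd6 lies inside both ranges. The part of the chromosome in the Fzd6 difference was not tested. Wnt1, Wnt7b and Wnt10b, on the same chromosome, were dim and not called against ESCs in CHIR/XAV EpiSCs.

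Fzd1, a receptor for canonical ligands, read 6.51, 6.34 and 6.23 in CHIR/XAV EpiSCs, 7.30, 7.49 and 7.34 in FGF2/activin EpiSCs and 5.75, 5.63 and 5.69 in ESCs. Again the groups did not overlap, with FGF2/activin EpiSCs at the top. Fzd1 differed from ESCs by 0.67 (SE 0.08, adjusted p = 9.07e-06) in CHIR/XAV EpiSCs and 1.69 (adjusted p = 3.46e-10), or 3.23-fold, in FGF2/activin EpiSCs. Between CHIR/XAV and FGF2/activin EpiSCs the difference was -1.02 (adjusted p = 2.32e-07).

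Fzd2 was higher in EpiSCs of both kinds, with a wide spread. It read 6.79, 6.84 and 6.52 in CHIR/XAV EpiSCs, 6.49, 6.82 and 6.67 in FGF2/activin EpiSCs and 5.82, 5.84 and 5.32 in ESCs. All EpiSC arrays lay above all ESC arrays, and the EpiSC groups overlapped. Against ESCs the differences were 1.05 (SE 0.13, adjusted p = 1.31e-05) and 1.00 (adjusted p = 1.86e-05) in CHIR/XAV and FGF2/activin EpiSCs. The difference between the EpiSC groups was 0.05, with a 95% interval of -0.23 to 0.34 (adjusted p = 0.781).

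Fzd3, a receptor of planar polarity and axon guidance in the mouse, was just short of 2-fold in its rise. It read 7.05, 7.03 and 7.47 in CHIR/XAV EpiSCs, 6.98, 7.03 and 7.06 in FGF2/activin EpiSCs and 6.23, 6.21 and 6.11 in ESCs. The EpiSC arrays were all above the ESC arrays, and CHIR/XAV replicate 3 was the highest. Against ESCs the rises were 1.00 (adjusted p = 1.32e-06) and 0.84 (adjusted p = 6.60e-06), and the EpiSC groups differed by 0.16, with an interval of -0.06 to 0.38.

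Fzd10 was called lower in CHIR/XAV EpiSCs and higher in FGF2/activin EpiSCs, each against ESCs. It read 6.15, 6.10 and 6.05 in CHIR/XAV EpiSCs, 7.54, 7.49 and 7.43 in FGF2/activin EpiSCs and 6.90, 7.08 and 6.77 in ESCs. The ESC arrays lay between the EpiSC groups with no overlap. The difference from ESCs was -0.82 (SE 0.08, adjusted p = 7.92e-07) in CHIR/XAV EpiSCs and 0.57 (adjusted p = 2.69e-05) in FGF2/activin EpiSCs. The last value was 0.31 under quantile normalization. CHIR/XAV EpiSCs differed from FGF2/activin EpiSCs by -1.39 (adjusted p = 6.33e-09), or 2.61-fold.

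Fzd7, a receptor studied for its part in the self-renewal of human embryonic stem cells, was above the dim range everywhere and higher in CHIR/XAV EpiSCs. It read 9.36, 9.38 and 9.34 there, 8.74, 8.88 and 8.84 in FGF2/activin EpiSCs and 8.86, 8.96 and 8.88 in ESCs. The CHIR/XAV arrays stood above the rest, and the FGF2/activin and ESC arrays overlapped. The difference of CHIR/XAV EpiSCs was 0.46 from ESCs (adjusted p = 4.24e-05) and 0.54 from FGF2/activin EpiSCs (adjusted p = 1.38e-05). FGF2/activin EpiSCs differed from ESCs by -0.08 (adjusted p = 0.291).

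Fzd5 was lower in EpiSCs, at 6.53 ± 0.09 in CHIR/XAV EpiSCs, 6.36 ± 0.09 in FGF2/activin EpiSCs and 6.90 ± 0.05 in ESCs (SD, n = 3 each). Its differences from ESCs were -0.37 (adjusted p = 0.000728) and -0.54 (adjusted p = 2.04e-05). Fzd9 averaged 5.77, 5.34 and 5.76 in the same order, and its difference of FGF2/activin EpiSCs from ESCs was -0.42 (adjusted p = 0.000514). Fzd4, the receptor that Norrin also uses in the mouse retina, was dim in all groups, at 5.09, 4.54 and 4.90. Its CHIR/XAV arrays all lay above and its FGF2/activin arrays all below the ESC arrays, with differences of 0.19 (adjusted p = 0.117) and -0.36 (adjusted p = 0.00553). Fzd8 was called in no comparison, at 5.66, 5.70 and 5.60.

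Of the co-receptors, Lrp5 was higher in each kind of EpiSC than in ESCs and Lrp6 was not called. Lrp5 read 8.31, 8.45 and 8.60 in CHIR/XAV EpiSCs, 8.41, 8.44 and 8.51 in FGF2/activin EpiSCs and 7.52, 7.51 and 7.36 in ESCs. Every EpiSC array lay above every ESC array, and the 2 EpiSC groups overlapped. Lrp5 differed from ESCs by 0.99 (SE 0.08, adjusted p = 1.30e-07) and 0.99 (adjusted p = 1.03e-07) in CHIR/XAV and FGF2/activin EpiSCs, or 1.99-fold. The 95% interval of the difference between the EpiSC groups was -0.18 to 0.17. Lrp6 averaged 8.98 ± 0.08, 9.08 ± 0.02 and 8.96 ± 0.03 in CHIR/XAV EpiSCs, FGF2/activin EpiSCs and ESCs (SD, n = 3 each). Its differences from ESCs were 0.02 (interval -0.12 to 0.16) and 0.12 (interval -0.02 to 0.26). Neither passed the test, but with median centring Lrp6 was called higher in FGF2/activin EpiSCs.

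**Figure D3:**
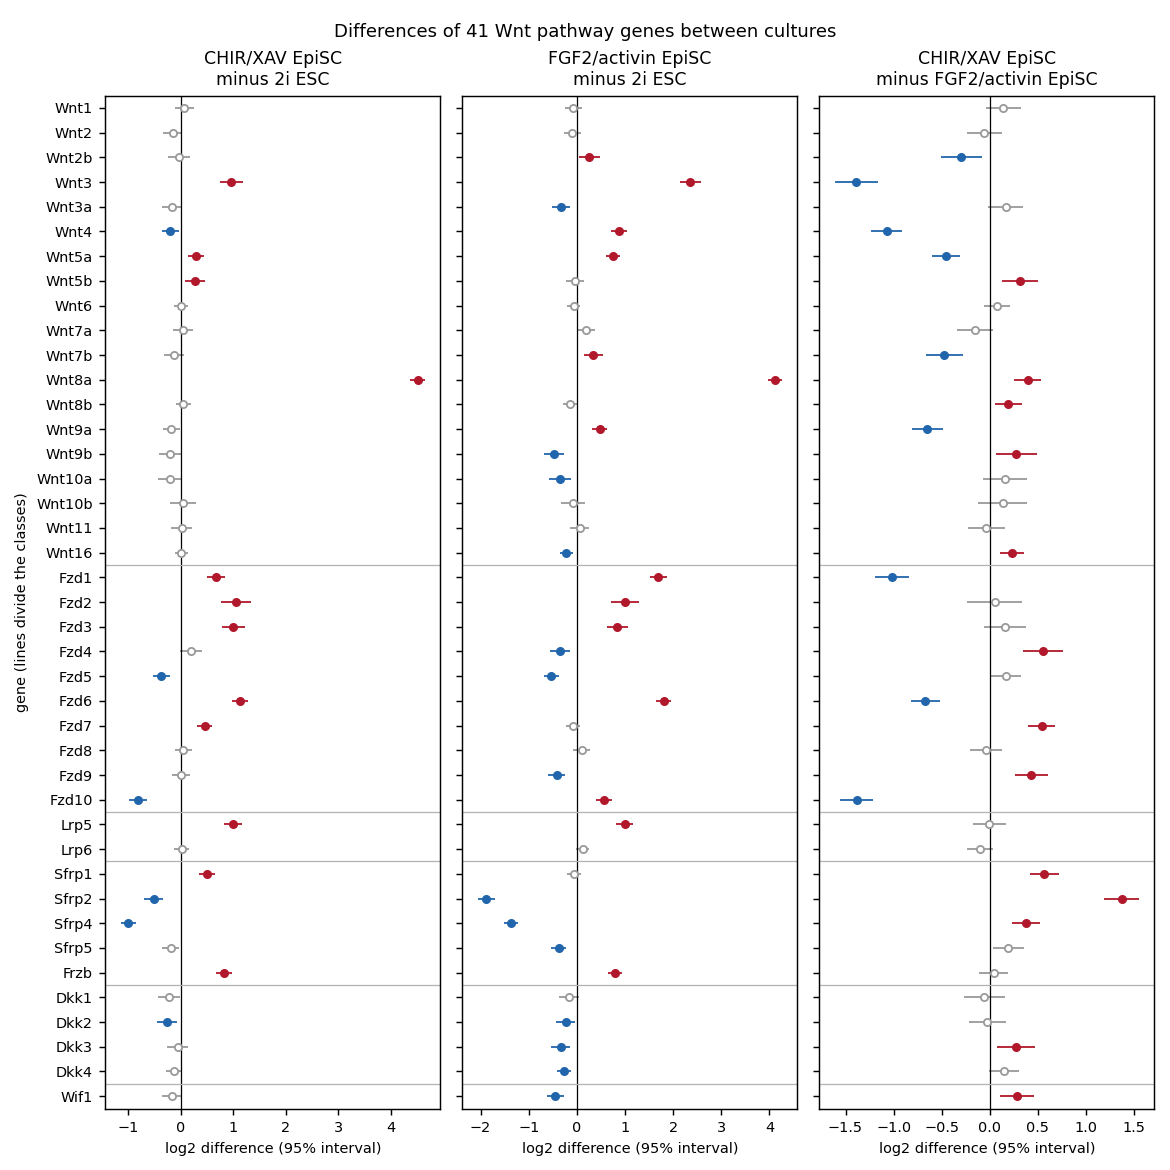
Log2 differences of the 41 genes by class (horizontal axis) in CHIR/XAV EpiSCs minus ESCs, FGF2/activin EpiSCs minus ESCs and CHIR/XAV minus FGF2/activin EpiSCs, with 95% intervals from limma. Each panel has its own scale, and filled points passed an adjusted p of 0.05, red higher and blue lower; Wnt8a lies farthest to the right against ESCs, and Fzd10 lies on opposite sides of 0 in the 2 comparisons with ESCs.

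Secreted Frizzled-related proteins carry a domain like the ligand-binding part of a Frizzled receptor, by which they bind Wnt proteins outside the cell. Sfrp2 read 8.50, 8.69 and 8.64 in CHIR/XAV EpiSCs, 7.07, 7.30 and 7.36 in FGF2/activin EpiSCs and 9.05, 9.18 and 9.14 in ESCs. The groups did not overlap, and the FGF2/activin arrays were the lowest. Against ESCs the difference was -0.51 (SE 0.08, adjusted p = 0.000165) in CHIR/XAV EpiSCs and -1.88 (adjusted p = 1.49e-10), or 3.69-fold lower, in FGF2/activin EpiSCs. CHIR/XAV EpiSCs were 1.37 above FGF2/activin EpiSCs (adjusted p = 1.50e-08), the one rise of 2-fold or more among the 41 genes in that comparison.

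Sfrp1, from the same subfamily as Sfrp2, read 10.42, 10.59 and 10.53 in CHIR/XAV EpiSCs, 9.86, 9.96 and 10.01 in FGF2/activin EpiSCs and 10.02, 10.06 and 9.95 in ESCs. CHIR/XAV arrays were above all others, and FGF2/activin and ESC arrays overlapped. CHIR/XAV EpiSCs were 0.51 above ESCs (adjusted p = 3.47e-05) and 0.57 above FGF2/activin EpiSCs (adjusted p = 1.77e-05). FGF2/activin EpiSCs differed from ESCs by -0.06 (adjusted p = 0.454).

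Sfrp4 read 4.9996, 5.08 and 5.20 in CHIR/XAV EpiSCs, 4.72, 4.70 and 4.72 in FGF2/activin EpiSCs and 6.13, 6.11 and 6.03 in ESCs. It was dim in both EpiSC groups and above the dim range on all ESC arrays. It differed from ESCs by -0.998 (SE 0.07, adjusted p = 1.95e-08) and -1.38 (adjusted p = 4.21e-10) in CHIR/XAV and FGF2/activin EpiSCs. Frzb, which is the Sfrp3 gene, was dim in every group, yet its EpiSC arrays read 5.01 to 5.14 and its ESC arrays 4.14 to 4.32. Its differences from ESCs were 0.83 (adjusted p = 1.86e-07) and 0.79 (adjusted p = 2.59e-07). Sfrp5 was dim too, and its difference of FGF2/activin EpiSCs from ESCs was -0.38 (adjusted p = 0.000603).

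These 5 antagonist genes are too few for a statement about the class. In CHIR/XAV EpiSCs against ESCs 2 were higher and 2 lower (24.7% and 22.1% of all genes). FGF2/activin EpiSCs against ESCs gave 1 higher and 3 lower (27.8% and 33.5% of all genes). CHIR/XAV against FGF2/activin EpiSCs gave 3 higher and 0 lower (20.5% and 21.1% of all genes). The last counts were the same after median centring, tested-gene centring and quantile normalization. Those 3 were Sfrp1, Sfrp2 and Sfrp4, of which Sfrp4 was dim in both EpiSC groups.

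Dickkopf proteins block canonical signalling at the LRP co-receptors, with Dkk3 as the divergent member, and Wif1 encodes an antagonist that binds Wnt proteins themselves. Dkk1, a target of beta-catenin in many cells, read 5.24, 5.19 and 5.12 in CHIR/XAV EpiSCs, 5.13, 5.16 and 5.44 in FGF2/activin EpiSCs and 5.24, 5.58 and 5.39 in ESCs. The levels lie around the top of the dim range. The differences from ESCs were -0.22 (adjusted p = 0.0801) and -0.16 (adjusted p = 0.159), and neither passed the test. Dkk2, Dkk3, Dkk4 and Wif1 were dim in all groups. Of the 4 Dickkopf genes 0 were higher and 1 lower in the CHIR/XAV group, and 0 higher and 3 lower in FGF2/activin EpiSCs, each against ESCs. Among all genes dim in every group, 4.3% were higher and 12.5% lower in the CHIR/XAV group. In FGF2/activin EpiSCs these shares were 3.4% and 39.2%, so nothing is read from the counts about the Dickkopf class. The 3 falls in FGF2/activin EpiSCs, at -0.34 for Dkk3, -0.27 for Dkk4 and -0.23 for Dkk2, were not called under quantile normalization. That of Dkk2 was also lost with median centring, with the replicate block, without ESC replicate 1 or 3 and without FGF2/activin replicate 1 or 2. Dkk2 was also the lower gene in CHIR/XAV EpiSCs (-0.26, adjusted p = 0.0269), where its arrays overlapped those of ESCs. That call was lost without ESC replicate 1, ESC replicate 3, CHIR/XAV replicate 1 or CHIR/XAV replicate 3, with array weights and with quantile normalization. Wif1 differed from ESCs by -0.45 in FGF2/activin EpiSCs (adjusted p = 0.000327).

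The 23 genes above the dim range in at least 1 group carried most of the calls. In CHIR/XAV EpiSCs against ESCs 11 of them were higher and 5 lower, where 35.6% and 27.3% of the 12977 genes above that range were. FGF2/activin EpiSCs against ESCs gave 11 higher and 6 lower (40.8% and 30.5% of such genes). CHIR/XAV against FGF2/activin EpiSCs gave 8 higher and 7 lower (23.5% and 31.3% of such genes). The 18 dim genes gave 1 higher and 1 lower, 3 higher and 8 lower, and 5 higher and 2 lower in these comparisons. Among all 6961 genes dim in every group, 4.3% were higher and 12.5% lower in the first, 3.4% and 39.2% in the second, and 14.9% and 2.1% in the third.

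Other genes of the pathway were read from 5 lists, whose counts stand beside 24.7% of all genes higher and 22.1% lower in CHIR/XAV EpiSCs against ESCs, and 27.8% and 33.5% in FGF2/activin EpiSCs. Among genes above the dim range these shares were 35.6% and 27.3%, and 40.8% and 30.5%. Among 4 genes that make, carry or inactivate Wnt proteins, Porcn, the enzyme that attaches the lipid, was 2.03 below ESCs in CHIR/XAV EpiSCs and 2.59 below in FGF2/activin EpiSCs (differences -2.03 and -2.59). Wls, which carries lipid-modified Wnt proteins to the cell surface, was 1.36 and 2.25 higher. Notum, which removes the lipid outside the cell and is a beta-catenin target, differed by -2.56 and -2.62 and was dim in both EpiSC groups. By count 1 was higher and 2 lower in the CHIR/XAV group, and 2 higher and 2 lower in FGF2/activin EpiSCs.

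R-spondins strengthen Wnt signals by way of LGR receptors and the ligases Znrf3 and Rnf43, which remove Frizzled receptors from the surface. Of 9 genes of this arm 3 were higher and 1 lower in the CHIR/XAV group, and 4 higher and 2 lower in FGF2/activin EpiSCs, against ESCs. Lgr5 differed by 2.92 in CHIR/XAV EpiSCs and 2.73 in FGF2/activin EpiSCs and was dim in ESCs. Rspo1 differed by 1.40 and 0.68, and Rspo3 by 0.68 and 0.98.

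Among 15 other antagonists and modulators, 10 were higher and 0 lower in the CHIR/XAV group, and 9 higher and 3 lower in FGF2/activin EpiSCs. With tested-gene centring the counts were 8 and 1, and 8 and 5. The 3 largest differences in the CHIR/XAV group were those of the glypicans Gpc4 (1.35 and 2.04) and Gpc3 (1.08 and 0.78), which are cell-surface proteoglycans, and of Tpbg (1.07 and 1.78), a membrane inhibitor of the canonical branch in zebrafish. Among 14 alternative receptors and planar polarity genes, 5 were higher and 5 lower in the CHIR/XAV group, and 8 higher and 4 lower in FGF2/activin EpiSCs. Prickle1, a cytoplasmic polarity protein gene on chromosome 15, differed by 3.45 and 2.25, and Ptk7, a pseudokinase co-receptor, by 1.07 and 1.79. Vangl1, a membrane protein of the same pathway, was -0.78 in CHIR/XAV EpiSCs and 0.25 in FGF2/activin EpiSCs, on opposite sides of ESCs like Fzd10. Ror1, of the same list, was lower than in ESCs in both, at -0.79 in CHIR/XAV EpiSCs and -0.80 in FGF2/activin EpiSCs.

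Of 12 beta-catenin targets measured, 5 were higher and 4 lower in CHIR/XAV EpiSCs against ESCs, and 6 higher and 5 lower in FGF2/activin EpiSCs. In CHIR/XAV against FGF2/activin EpiSCs 3 were higher and 4 lower, where 20.5% of all genes were higher and 21.1% lower. The directions therefore differed among members, with Myc at 2.74 and 2.66, Lef1 at 1.02 and 0.26 and Cdx2 at -1.07 and -0.84 in CHIR/XAV and FGF2/activin EpiSCs against ESCs. Axin2, of the same list, was called lower in both, at -1.004 in CHIR/XAV EpiSCs and -0.807 in FGF2/activin EpiSCs against ESCs. With tested-gene centring the counts were 3 and 6 in CHIR/XAV EpiSCs and 5 and 5 in FGF2/activin EpiSCs.

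**Figure D4:**
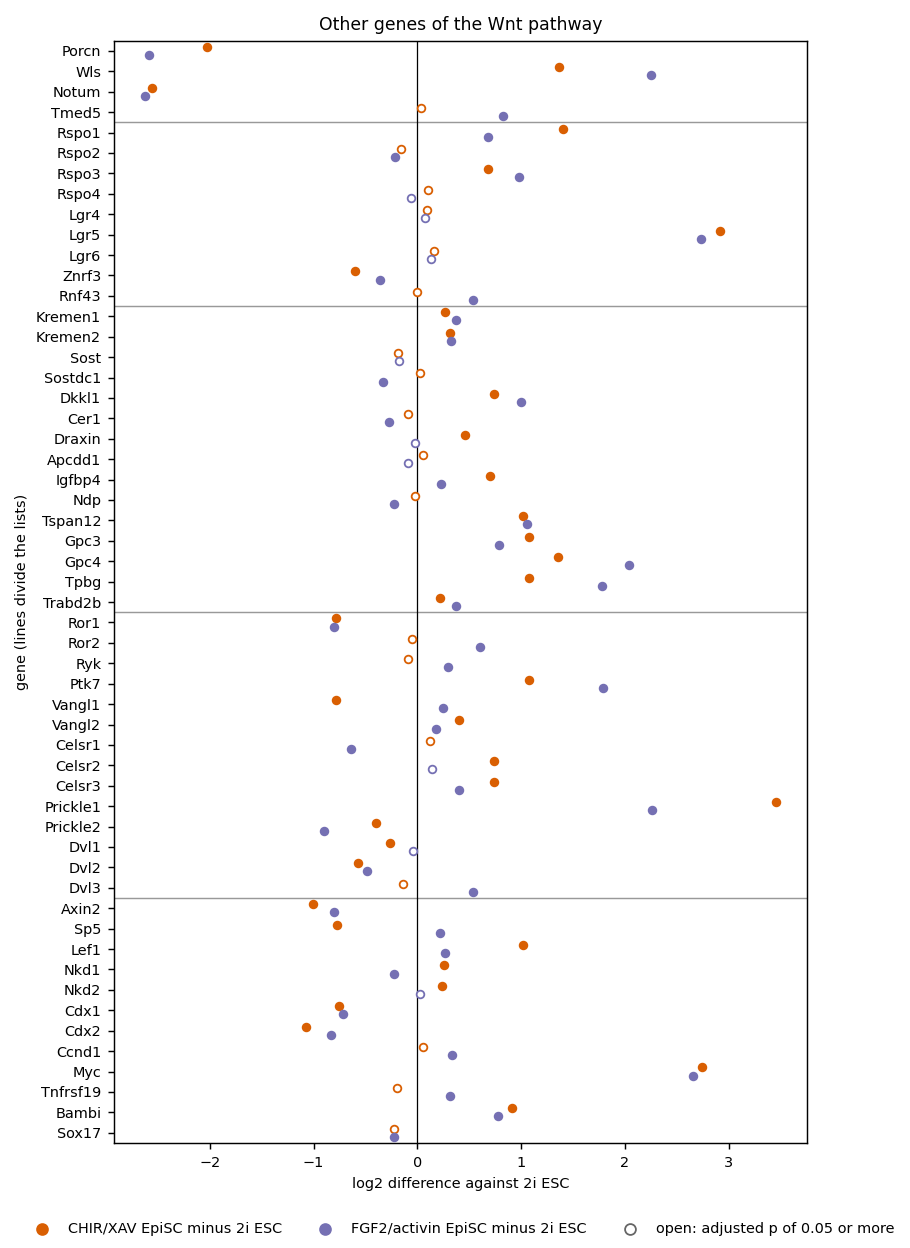
Log2 differences from 2i ESCs (horizontal axis) of 54 other genes of the Wnt pathway in CHIR/XAV EpiSCs and FGF2/activin EpiSCs (n = 3 arrays each), in the order secretion, R-spondin arm, other antagonists and modulators, alternative receptors and planar polarity, and beta-catenin targets. Open points did not pass an adjusted p of 0.05; Porcn and Notum lie farthest to the left and Prickle1 farthest to the right.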

How the data were processed

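Single-colour Affymetrix Mouse Gene 1.0 ST arrays (named in the header of the probe annotation) were hybridised with total RNA. The deposited values are log2 expression summaries that the authors made in Partek with RMA, which corrects background, normalizes arrays to each other and summarises probes. Both names come from the submitters' processing notes, which state no version. Scanner files and detection calls were not used here, and precision is limited by the number of arrays.

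Of 35399 probe sets, 21789 carried 1 symbol, 1621 several and 11989 none; those with several or none were left out. Where a gene had more than 1 probe set (999 of 19938 genes, among them Wnt4) the brightest by the mean over 9 arrays was kept. Symbols were updated through gene identifiers to RefSeq GRCm38.p6, where 19856 genes matched; array coordinates are not printed.

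Groups came from the sample titles. All 9 arrays entered 1 fit in limma 3.58.1 under R 4.3.3 (lmFit, contrasts.fit, eBayes), without covariates or a filter, with Benjamini-Hochberg adjustment over 19938 genes. Standard errors are moderated ones. The fit was tested on simulated data. Genes called with a log2 difference of 1 or more in any comparison are given by array. So are some others below that size, chosen after their values were seen. Of each other list up to 3 members with the largest difference in a comparison are named. Vangl1, Ror1, Axin2 and the fibroblast markers were added after their values were seen. The genes and lists were chosen with earlier results of these data known. T, for which the table held no separate probe set, was not analysed here. Alternatives were the mean of all probe sets, median centring, quantile normalization, fits of 2 groups, array weights, trend and robust variance, no genes from the dimmest 40%, the replicate number as a block, and each array left out; centring on the median of the tested genes was added after the data were seen.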

Additional observations from a re-analysis of the deposited data

Results flagged for a closer look

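Of the 9 genes with a 2-fold difference in some comparison, Wnt4 and Fzd10 lay on opposite sides of ESCs in the 2 kinds of EpiSC. For both, the difference between the EpiSC groups passed limma's test over all genes. Some members with smaller differences had opposite signs too and were not flagged. Wnt9a, for instance, was at -0.18 (not called) in CHIR/XAV EpiSCs and 0.47 in FGF2/activin EpiSCs against ESCs. For Fzd10 the differences from ESCs were -0.82 in CHIR/XAV EpiSCs and 0.57 in FGF2/activin EpiSCs, and CHIR/XAV minus FGF2/activin was -1.3852 (adjusted p = 6.33e-09). No arrays of the 3 groups overlapped. Under the 18 alternatives run, that difference ran from -1.42 to -1.29 and its adjusted p from 4.17e-11 to 1.30e-07.

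For Wnt4 the differences from ESCs were -0.20 in CHIR/XAV EpiSCs and 0.87 in FGF2/activin EpiSCs, and CHIR/XAV minus FGF2/activin was -1.07353 (adjusted p = 5.93e-08). Both probe sets of Wnt4 gave that last sign. They disagreed on CHIR/XAV EpiSCs against ESCs, and on the brighter one the CHIR/XAV and ESC arrays overlapped and the call was lost in 10 alternatives. The placement of Wnt4 below ESCs in CHIR/XAV EpiSCs is therefore not secure. The explanation of either pattern was not tested.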

How the results depend on the processing

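Each of the 9 genes given by array for a 2-fold difference kept its direction under all 18 alternatives in each comparison in which it was called, apart from Wnt4 in CHIR/XAV EpiSCs against ESCs. There Wnt4 turned to 0.11 (adjusted p = 0.206) as the mean of its probe sets, and lost the call in 10 other alternatives; the adjusted p ran from 0.00242 to 0.206. With centring on the median of the tested genes, 16 members were lower in CHIR/XAV EpiSCs against ESCs, in place of 6. That centring moved the median of all genes in this comparison to -0.13, against -0.03 as deposited. In FGF2/activin EpiSCs against ESCs 9 members were lower after quantile normalization, and 5 once the dimmest 40% of genes were left out, where 21 members were tested, in place of 14. The share of higher among called genes was 52.7% in CHIR/XAV EpiSCs against ESCs and 35.0% with tested-gene centring. In FGF2/activin EpiSCs against ESCs it was 45.3%, 35.0% with tested-gene centring and 59.6% without the dimmest genes.

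Leaving out 1 array at a time gave 11 to 12 members higher and 4 to 7 lower in CHIR/XAV EpiSCs against ESCs, 13 to 15 and 12 to 15 in FGF2/activin EpiSCs against ESCs, and 9 to 13 and 8 to 9 in CHIR/XAV against FGF2/activin EpiSCs. The last fell to 9 higher without CHIR/XAV replicate 2 or FGF2/activin replicate 2, where Dkk3, Wif1, Wnt8b and Wnt9b lost their calls. With the replicate number as a block, 12 were higher and 7 lower, 14 and 13, and 13 and 9. Samples with the same number correlated by -0.07 to 0.24 after group means were removed, so the number was not taken as a pairing. At the 90th percentile of olfactory receptor genes 16 members were dim in all groups, in place of 18. Without detection calls, a dim level cannot be told from background.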

Other observations

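Several Wnt genes sit next to each other in the mouse genome with 0 protein-coding genes between them in RefSeq GRCm38.p6, and their values are given side by side, with no test between the members of a pair. Wnt3 and Wnt9b lie side by side on chromosome 11. In CHIR/XAV against FGF2/activin EpiSCs Wnt3 differed by -1.39 and Wnt9b by 0.27 (adjusted p = 0.0384, a call lost in several alternatives). In FGF2/activin EpiSCs against ESCs they differed by 2.36 and -0.47. The pair Wnt3a and Wnt9a on the same chromosome differed by -0.33 and 0.47 in FGF2/activin EpiSCs against ESCs, with Wnt3a dim in all groups. Wnt6 and Wnt10a on chromosome 1 differed by -0.07 (not called) and -0.35 in that comparison. Wnt1 and Wnt10b on chromosome 15 were dim and called in no comparison.

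The second probe set of Wnt4 read 5.25, 5.39 and 5.36 in CHIR/XAV EpiSCs, 6.37, 6.56 and 6.39 in FGF2/activin EpiSCs and 4.94, 4.82 and 4.99 in ESCs. On it the CHIR/XAV arrays all lay above the ESC arrays.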
